A study of Arabidopsis thaliana with 9 samples.

Results

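PAP85 (locus AT3G22640) is a gene of Arabidopsis thaliana for a vicilin-like globulin, a protein that seeds store as a reserve. It was found by its symbol in the annotation of the probe sets, which gave it 1 probe set of 22746 that do not serve as array controls. It is therefore 1 of 13286 loci with a probe set of their own in that annotation. The measurements came from 9 single-colour ATH1 arrays hybridised with RNA of whole plants, 3 arrays in each of 3 groups. The null mutant and the substitution mutant groups carry mutations in HDA6 that were induced with EMS, a chemical mutagen, in the strain Col-0. Their source is named rts1-1 in both, and only the titles separate a null mutant from an amino acid substitution. The double transformant group is of Columbia source and Col-0 strain with no HDA6 mutation named, and the labels do not state what its transgenes are. All plants were 35 days old and had grown at 21 ºC under constant light on Murashige and Skoog medium, at a night humidity of 53%, or of 35% in the case of double transformant 1.

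Vicilin-like globulins belong to the cupin proteins and are made in the maturing embryo, together with the cruciferins, the 2S albumins, the oleosins that coat oil bodies and the late embryogenesis abundant (LEA) proteins of drying seeds. Their genes are switched on by a network of embryo regulators that includes ABI3, FUS3, LEC1 and LEC2, and are switched off when the seedling grows. HDA6 is a histone deacetylase, an enzyme that removes acetyl groups from histones. Together with the related HDA19 and the VAL repressors it is known to keep embryo genes silent after germination. The comparisons ask how a storage protein gene stands in grown plants whose HDA6 is lost or altered.

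Levels are linear MAS5 signals, in arbitrary units. Array medians ranged from 31.8 to 36.8. The 3′ to 5′ signal ratio of the GAPDH control, a measure of RNA integrity, ranged from 1.38 to 2.15. It was highest in null mutant 3 (1.95) and double transformant 3 (2.15), whose signals also correlated least with those of the rest (mean r of 0.945 and 0.946). The same ratio of the ubiquitin control had another order, with 3.57 in null mutant 3, 3.21 in double transformant 3 and the highest value, 3.75, in double transformant 1. HDA6 itself has no probe set named in the annotation used, so its level was not analysed here. QQS, a gene of starch metabolism with epigenetically variable expression, rose by 6.05 ± 0.13 in the null mutant and by 6.06 ± 0.13 in the substitution mutant on the log2 scale (SE, limma adjusted p = 3.26e-10 and 3.22e-10). Nothing in the labels says that the plants behind a group's arrays were grown or extracted separately, so the p-values rest on a spread between arrays that may be technical alone. In RNA of whole plants, a change in the number of cells that express a gene and a change in RNA per cell cannot be told apart.

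PAP85 had its highest levels in the HDA6 mutants, but the arrays varied widely. Its signal was 31.5, 146.2 and 74.9 in null mutants 1, 2 and 3. In substitution mutants 1, 2 and 3 it was 121.5, 71.4 and 94.9. In double transformants 1, 2 and 3 it was 34.7, 4.65 and 16.2. All 3 substitution arrays thus lay above all 3 double transformant arrays, whereas null mutant 1 lay just under double transformant 1 and the other null mutant arrays lay above every double transformant array. Double transformant 2 stood lowest of all 9, close to the offset of 4.05 units that was added before taking logarithms.

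**Figure D1:**
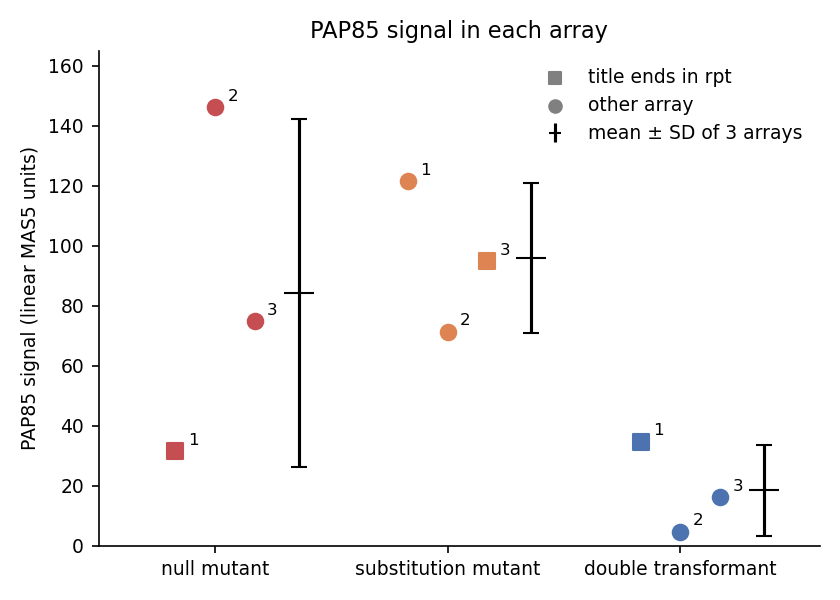
PAP85 signal in linear MAS5 units (vertical axis) for each array of the null mutant, the substitution mutant and the double transformant, with the replicate number beside each point, squares for arrays whose titles end in rpt, and the mean ± SD of each group. The 3 substitution arrays lie between 71.4 and 121.5, the null mutant arrays spread from 31.5 to 146.2, and the double transformant arrays reach 34.7 at most.

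As group means, the signal was 84.2 ± 57.9 among null mutants, 95.9 ± 25.1 among substitution mutants and 18.5 ± 15.1 in the double transformant (SD, n = 3 each). In this order of levels the substitution mutant came first and the null mutant next, and these neighbours did not differ beyond their spread. The ratio of mean signals to the double transformant was 4.55 for the null mutant and 5.19 for the substitution mutant. On the log2(signal + 4.05) scale the spread within groups, pooled over the 3 groups, was 0.892, larger than that of 98.1% of all probe sets, whose median was 0.317.

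Whether PAP85 differs between the groups was tested in a linear model over all 9 arrays and all 22746 probe sets. In these comparisons the state of HDA6 cannot be told apart from other EMS mutations, from transgenes of the double transformant or from other differences between the lines. In the null mutant PAP85 differed from the double transformant by 1.98 ± 0.55 (SE) on the log2 scale, a 3.95-fold difference with a 95% interval from 1.71-fold to 9.15-fold. Its limma adjusted p was 0.168 (unadjusted p = 0.004; 11.1% of all probe sets had one under 0.05), so it was not among the 173 probe sets, 0.761% of those tested, that passed an adjusted p of 0.05. Of the 9 pairings of a null mutant array with a double transformant array, 8 had the higher signal in the null mutant. By size alone the difference was the 76th highest of all probe sets.

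In the substitution mutant PAP85 differed from the double transformant by 2.37 ± 0.55 on the log2 scale, which is 5.16-fold with a 95% interval from 2.23-fold to 11.9-fold. The limma adjusted p was 0.0902 (unadjusted p = 0.00118; 11.8% of all probe sets had one under 0.05), and PAP85 was not one of the 170 probe sets (0.747%) that passed. No substitution array lay in the range of the double transformant, which was also the case, in this direction, for 10.6% of all probe sets. By size this was the 39th highest difference. The offset added before the logarithm makes these differences smaller than the ratios of the plain signals, since the double transformant levels are low.

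With both mutant groups combined at equal weight, PAP85 was higher by 2.18 ± 0.48 on the log2 scale (95% interval 1.13 to 3.22). The limma adjusted p was 0.0573, just outside the threshold that 271 probe sets (1.19%) passed; the largest unadjusted p among these was 0.000591, against 0.000755 for PAP85. The signal was higher in the mutant in 17 of 18 pairings of arrays. An exact permutation test over the arrays (two-sided, 84 splits) gave p = 0.0238, where 0.0119 is the smallest value possible. After adjustment over the 4 comparisons of PAP85 it was 0.0952. PAP85 and the combined comparison were chosen with earlier results of these data known, which neither permutation value takes into account. For the null mutant and the substitution mutant alone, the exact permutation test (two-sided, 20 splits) gave p = 0.2 and 0.1, and 3 arrays against 3 cannot go below 0.1. These comparisons share the double transformant arrays.

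The null mutant and the substitution mutant were also set against each other. PAP85 differed by -0.38 ± 0.55 on the log2 scale, with a 95% interval from -1.60 to 0.83, so these arrays do not resolve whether and in which direction the mutant groups differ within that interval. The limma adjusted p was 0.929, in a comparison that called 9 probe sets (0.0396%), and the exact permutation p was 0.7.

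The PAP85 difference was far smaller among the arrays whose titles end in rpt, 1 in each group, than among the rest. The rpt arrays are null mutant 1, substitution mutant 3 and double transformant 1, and the labels do not say what rpt means. Among these 3 arrays PAP85 differed from the double transformant by -0.12 for the null mutant and 1.35 for the substitution mutant on the log2 scale, with 1 array a group and no test. Among the other 6 arrays the differences were 3.04 and 2.88, and a fit of those arrays alone gave limma adjusted p of 0.0340 and 0.0174. For both mutants together the difference was 0.61 within the rpt arrays and 2.96 without them (adjusted p = 0.00930). Double transformant 1, the array grown at a lower night humidity, is also the double transformant array with the highest PAP85 signal. With the rpt title as a block over all 9 arrays, the differences kept their size of 1.98, 2.37 and 2.18, and the limma adjusted p was 0.213, 0.124 and 0.0832. The part of humidity in the result was not tested.

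The side of the threshold on which PAP85 fell changed with single arrays. Without double transformant 1 the limma adjusted p was 0.0395 in the substitution mutant and 0.0285 for both mutants together, and without null mutant 1 it was 0.0253 for both together. The null mutant did not pass in any of the 9 fits that left out a single array, with log2 differences from 1.42 to 2.52. In the substitution mutant they ran from 1.81 to 2.88, and for both together from 1.61 to 2.69, positive in every such fit.

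**Figure D2:**
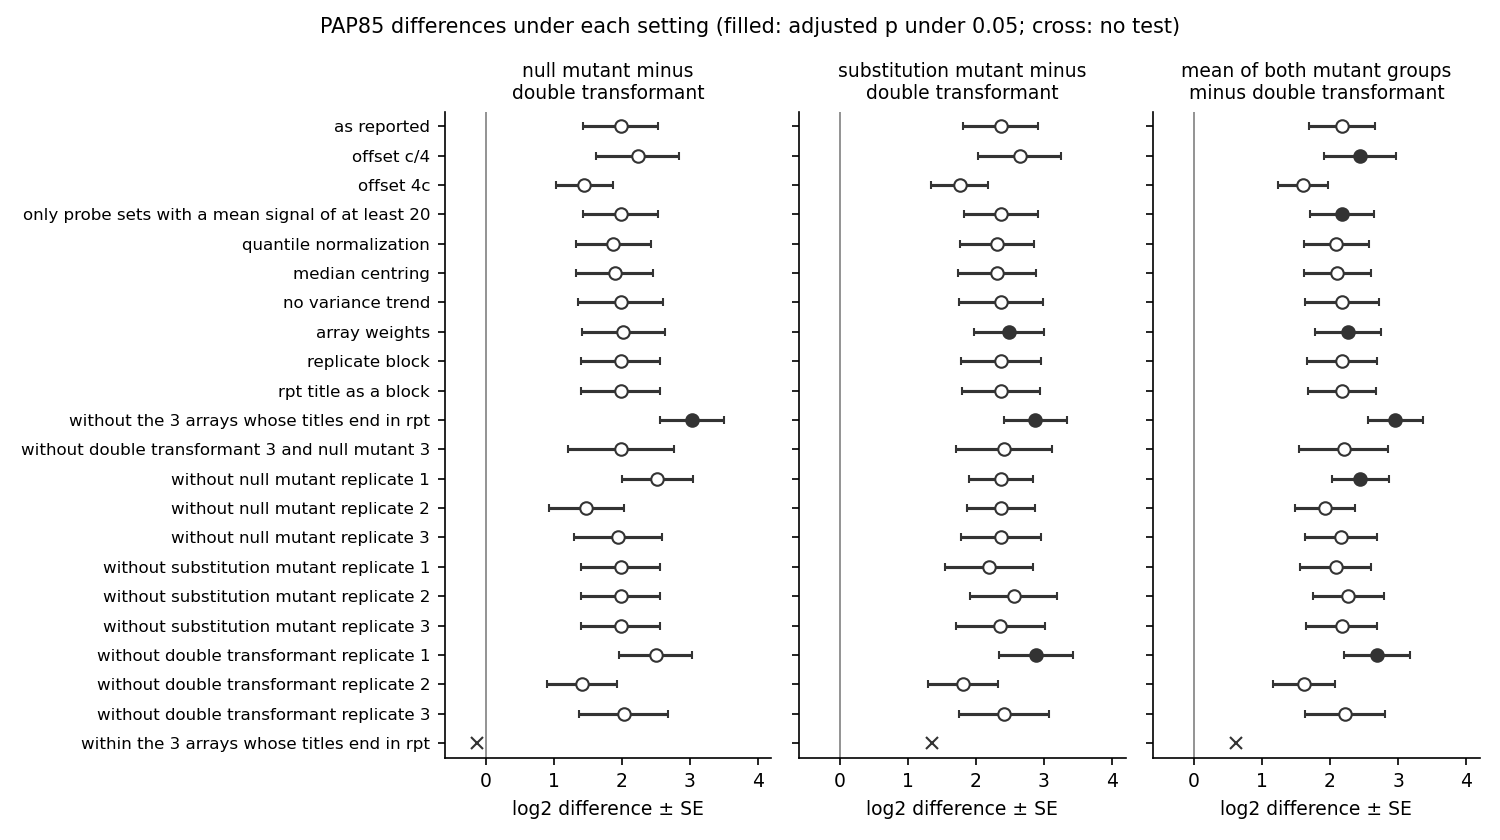
Log2 difference of PAP85 with its SE (horizontal axis) for the null mutant, the substitution mutant and the mean of both mutant groups against the double transformant, under each way of processing the arrays (vertical axis). Filled points have a limma adjusted p under 0.05 and crosses mark single arrays with no test. The fits without the rpt arrays gave 3.04, 2.88 and 2.96, and the null mutant was below 0 within the rpt arrays (-0.12).

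In the lists of genes, measured means that the annotation gave the gene a probe set of its own. It named no gene for 8730 probe sets and several genes for 503, so signals of other list members may lie among those. The counts and medians therefore cover the measured members only. The list of 15 storage protein loci had 7 measured members with PAP85 included, and 0 of 7 passed in either mutant (limma adjusted p under 0.05). The other 6 are given in the reference table by locus identifier alone. The signals of 5 of them were low in every array. AT4G36700 did not exceed 22.5 and AT2G18540 did not exceed 17.8. AT2G28680 reached 10.3, AT1G03890 reached 5.69 and AT2G28490 reached 2.21, and none of these 5 had groups that separated. The median log2 difference of the 7 members was 0.0549 for the null mutant and -0.301 for the substitution mutant, against 0.0190 and -0.00311 over all probe sets. At an unadjusted p under 0.05, 2 of 7 members were higher and 0 lower in each mutant group, namely PAP85 itself and AT1G07750. Of all probe sets 6.93% were higher at that p for the null mutant and 6.91% for the substitution mutant, and 4.21% and 4.94% were lower.

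The sixth, AT1G07750, had signals of 93.4 or more on every array, and its groups separated. Its signal was 132.0, 124.8 and 148.5 in the null mutant arrays, 106.3, 129.3 and 124.5 in the substitution arrays, and 93.4, 94.5 and 95.8 in the double transformant arrays. Every mutant array lay above every double transformant array, a pattern that 4.13% of all probe sets showed in this direction. The difference was small, 0.49 ± 0.13 for the null mutant and 0.33 ± 0.13 for the substitution mutant (SE, log2), and did not pass (limma adjusted p = 0.135 and 0.331).

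The oil body list had 1 measured member of 10. OLEO3, an oleosin, had signals of 6.09, 13.7 and 9.17 in null mutant arrays, 15.8, 8.31 and 6.85 in substitution arrays, and 8.38, 5.14 and 6.41 in the double transformant. The groups overlapped, and the log2 differences of 0.33 ± 0.36 and 0.39 ± 0.36 did not pass (limma adjusted p = 0.799 and 0.760).

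Of 14 genes in the list of LEA and desiccation proteins, 5 were measured, and 0 of 5 passed in either mutant, while 2 and 1 were higher at an unadjusted p under 0.05 (LTI30 in both, AtLEA4-1 in the null mutant), against 6.93% and 6.91% of all probe sets. LTI30, a dehydrin induced by cold and abscisic acid, had signals of 1009.6, 173.3 and 269.9 in null mutant arrays, 157.8, 191.2 and 163.0 in substitution arrays and 97.0, 61.9 and 49.2 in the double transformant. All mutant arrays lay above the double transformant, as in 4.13% of all probe sets, with null mutant 1 far above the rest. LTI30 differed by 2.37 ± 0.49 and 1.30 ± 0.49 on the log2 scale (limma adjusted p = 0.0535 and 0.309), and without null mutant 1 it passed in both mutants, at 1.64 and 1.30 (adjusted p = 0.0315 and 0.0354). Without null mutant 2 it passed in the null mutant, at 2.90 (adjusted p = 0.0128). The array with the highest LTI30 signal, null mutant 1, was the mutant array with the lowest PAP85 signal.

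The other LEA genes were dim and mostly overlapped between groups. M10 reached 31.5 and LEA4-5 reached 57.9 as their highest signals, and AtLEA4-1 and AT3G15670 (locus identifier alone) stayed at or below 16.8 and 12.3. With PAP85 left out, the storage, oil body and LEA lists together held 12 measured genes, of which 10 had a mean signal under 20 and 0 passed in either mutant. Their median log2 difference was 0.411 for the null mutant and 0.0302 for the substitution mutant. The groups did not overlap, with the mutants higher, for 3 of the 12 in the null mutant, against 8.19% of all probe sets, and for 2 of the 12 in the substitution mutant, against 10.6%. Of the 3, AT3G15670 separated only by 0.825 in null mutant 2 against 0.774 in double transformant 2, both far under the offset. A second set of 7 measured genes with LEA or dehydrin in their listed synonyms, chosen after the data were seen, shared AtLEA4-1 and LEA4-5 with the first list. It had medians of 0.464 and 0.0520 and 0 members that passed. In the null mutant 2 of these 7 were higher at an unadjusted p under 0.05, against 6.93% of all probe sets. Likewise 2 of 7 lay above the double transformant without overlap, against 8.19%. Of these, LEA18 separated only by 1.93 in null mutant 3 against 1.91 in double transformant 3, both under the offset. In the substitution mutant both counts were 0, against 6.91% and 10.6%.

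**Figure D3:**
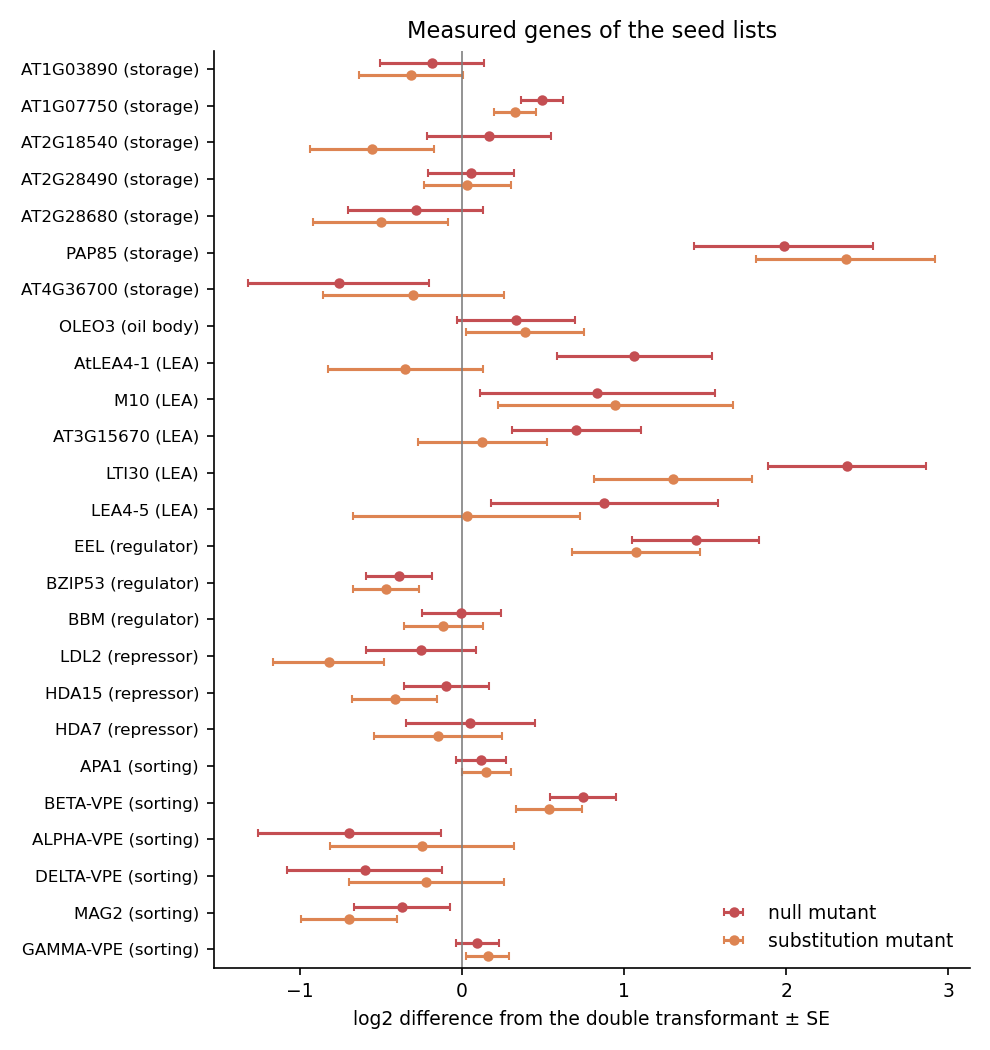
Log2 difference from the double transformant with its SE (horizontal axis) for the measured genes of 6 lists of seed genes (vertical axis), with 1 colour for each mutant group. PAP85 stands at 1.98 and 2.37, LTI30 at 2.37 and 1.30, EEL at 1.44 and 1.07, and M10 at 0.84 and 0.95.

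Of 17 regulators of the seed programme, 3 were measured, and ABI3, FUS3, LEC1 and LEC2 were not among them. The count past the adjusted threshold was 0 of 3 in both mutants. At an unadjusted p under 0.05 in either direction it was 1 and 2, against 11.1% and 11.8% of all probe sets. These were EEL, higher in both mutants, and BZIP53, lower in the substitution mutant. EEL is a bZIP factor that competes with ABI5 at the promoter of a LEA gene in the maturing embryo. It had signals of 10.5, 8.49 and 24.6 in null mutant arrays, 14.5, 5.89 and 9.15 in substitution arrays and 1.99, 2.31 and 2.74 in the double transformant. All mutant arrays lay above the double transformant, as in 4.13% of all probe sets, but all 3 double transformant values lie under the offset. The EEL differences of 1.44 ± 0.39 and 1.07 ± 0.39 on the log2 scale did not pass (limma adjusted p = 0.157 and 0.296). BZIP53 is a bZIP factor that activates storage protein genes. Its signals were 412.9, 495.5 and 558.9 in null mutant arrays, 423.6, 346.7 and 657.3 in substitution arrays and 616.4, 685.3 and 613.0 in the double transformant, with log2 differences of -0.39 ± 0.20 and -0.47 ± 0.20 that did not pass (limma adjusted p = 0.51 and 0.381). The value in the substitution mutant was -0.27 without substitution mutant 2 and -0.73 without substitution mutant 3. BBM, a factor that promotes embryo growth, did not exceed 2.08 in any array.

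Of 23 genes listed as repressors of the seed programme or as related chromatin enzymes, 3 were measured and 0 passed. At an unadjusted p under 0.05 there were 0 and 1 (LDL2, lower), against 11.1% and 11.8% of all probe sets in either direction. The histone deacetylase gene HDA15 differed by -0.10 ± 0.26 for the null mutant and -0.42 ± 0.26 for the substitution mutant. For LDL2, a gene for a histone demethylase, the values were -0.25 ± 0.34 and -0.82 ± 0.34 (limma adjusted p = 0.841 and 0.361), and all 3 substitution arrays lay below the double transformant, as in 8.60% of all probe sets. HDA7, a further histone deacetylase gene, stayed at or below 6.28 in every array.

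Storage globulins travel from the endoplasmic reticulum to the vacuole, where processing enzymes cut many of them. Of 14 genes listed for this route 6 were measured and 0 passed. At an unadjusted p under 0.05 in either direction there were 1 and 2, against 11.1% and 11.8% of all probe sets. These were BETA-VPE, higher in both mutants, and MAG2, lower in the substitution mutant. BETA-VPE, the vacuolar processing enzyme most active in seeds, had signals of 93.7, 59.4 and 74.4 in null mutant arrays, 63.4, 66.0 and 62.2 in substitution arrays and 43.5, 34.6 and 52.0 in the double transformant. Every mutant array lay above every double transformant array, as in 4.13% of all probe sets, with log2 differences of 0.75 ± 0.20 and 0.53 ± 0.20 (limma adjusted p = 0.159 and 0.320). MAG2, which takes part in the export of storage proteins from the endoplasmic reticulum, had all 6 mutant arrays below the double transformant. Its signals were 25.5, 33.3 and 31.5 in null mutant arrays, 13.4, 26.5 and 33.3 in substitution arrays and 42.4, 34.9 and 43.1 in the double transformant (log2 differences of -0.37 ± 0.30 and -0.70 ± 0.30, limma adjusted p = 0.703 and 0.379), a pattern shown by 2.46% of all probe sets in this direction.

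The other measured processing enzymes did not separate. GAMMA-VPE, the vegetative form, differed by 0.09 ± 0.13 and 0.16 ± 0.13 on the log2 scale, and APA1, an aspartic protease of the vacuole, by 0.12 ± 0.15 and 0.15 ± 0.15. ALPHA-VPE and DELTA-VPE did not exceed 20.9 and 13.6 in any array.

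Genes whose pattern over the 9 arrays was most like that of PAP85 were ranked by the Pearson correlation of log2 signals, among 7135 loci with a mean signal of at least 20. The 10 highest were AT1G14210, AT2G29310, AT1G15010, AT5G57290, AT1G68670, AT1G73630, AT1G23120, AT5G08400, AT4G40045 and AT1G67620, with r from 0.906 to 0.932. The reference table names them by identifier alone, and none is from the lists of seed genes. All 10 were read from the same 9 arrays as PAP85, and deviations from the group means alone correlated with those of PAP85 at 0.699 to 0.874. The choice of measure mattered: 2 of the 10 were also among the 10 highest by Spearman's rho, and 0 of the 10 by the correlation of deviations.

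AT1G15010 was the only one of these 10 with a difference above 1 on the log2 scale in both mutants. Its signal was 105.6, 140.5 and 130.6 in null mutant arrays, 187.0, 143.2 and 149.0 in substitution arrays, and 59.5, 35.4 and 35.2 in the double transformant. The mutant arrays thus lay clear of the double transformant, as in 4.13% of all probe sets in this direction. Its log2 differences were 1.48 and 1.82. For AT1G14210, the gene most like PAP85 (r = 0.932), the signals were 83.0, 123.5 and 100.3 in null mutant arrays, 117.3, 116.2 and 120.5 in substitution arrays and 83.4, 63.4 and 91.3 in the double transformant. As with PAP85, null mutant 1 lay just below double transformant 1 and double transformant 2 lay lowest. Both AT1G15010 and AT1G14210 were chosen by their correlation with PAP85, which favours array patterns like these, so the patterns are no separate result. The other 8 genes had log2 differences from 0.17 to 0.76 for both mutants together.

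**Figure D4:**
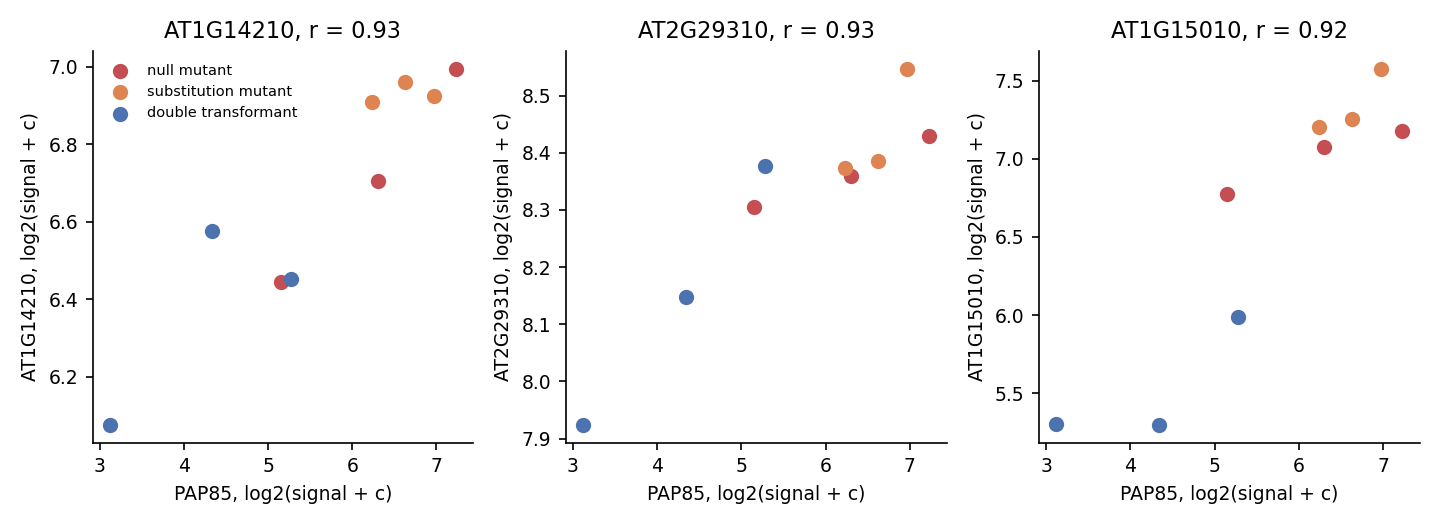
Log2(signal + c) of PAP85 (horizontal axis) against that of AT1G14210, AT2G29310 and AT1G15010 (vertical axes), 1 point for each of the 9 arrays, coloured by group. The correlations are 0.93, 0.93 and 0.92, and only for AT1G15010 do all 6 mutant arrays lie above the double transformant arrays on the vertical axis.

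The genes beside PAP85 on its chromosome were examined for a shared shift. The 5 nearest measured loci on each side, in a stretch of 20 annotated genes by gene order in TAIR10.1, run from AT3G22530 to AT3G22700. In each mutant 0 of these 10 passed, and 0 of 10 at an unadjusted p under 0.05 (limma), against 11.1% and 11.8% of all probe sets. For both mutants together 1 of 10, AT3G22540, had an unadjusted limma p under 0.05 (0.0394), against 12.9%, and 0 passed. The neighbours had log2 differences from -0.40 to 0.85 in the null mutant, with 6 of 10 above 0, and from -0.75 to 0.78 in the substitution mutant, with 3 of 10 above 0. The nearest on either side, AT3G22620 and CEG, differed by 0.37 and 0.07 in the null mutant and by -0.73 and -0.75 in the substitution mutant. AT3G22540 was the neighbour with the largest difference from 0 in each mutant, at 0.85 and 0.78, with signals that did not exceed 14.3.

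**Figure D5:**
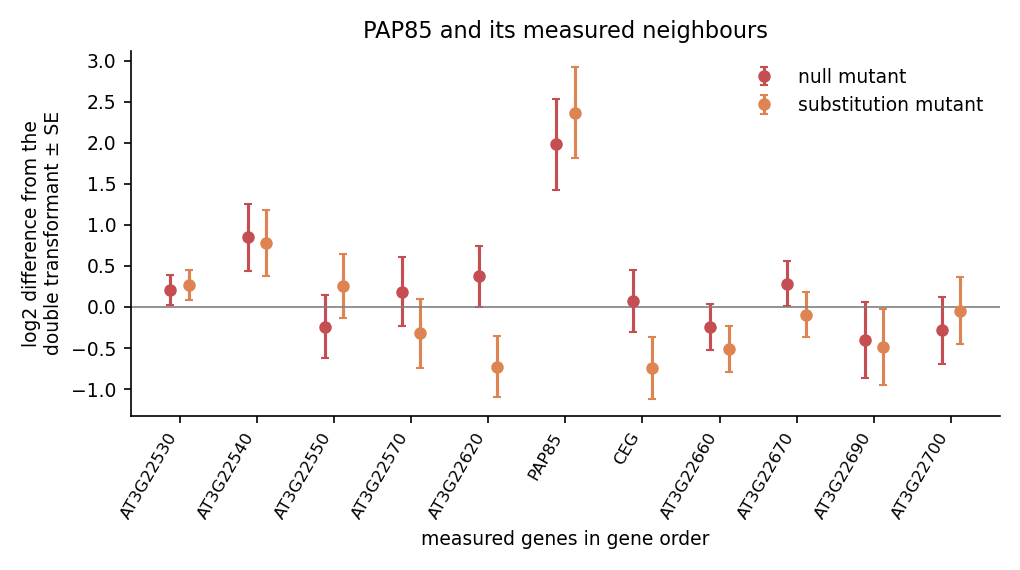
Log2 difference from the double transformant with its SE (vertical axis) for PAP85 and the 5 measured genes on each side in gene order (horizontal axis), with 1 colour for each mutant group. PAP85 stands at 1.98 and 2.37, and its neighbours lie between -0.75 and 0.85.

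Markers of the organs that a 35-day-old plant could hold were sparse in the annotation. The floral list had 0 of 10 genes measured and the leaf list 0 of 5. Of 8 genes for seed coat and endosperm 1 was measured, BAN, a flavonoid enzyme of the seed coat, which stayed at or below 2.40 in every array. Of 6 pollen and tapetum genes 4 were measured, with summed signals from 2.43 to 23.7 in null mutant arrays, 3.98 to 7.26 in substitution arrays and 5.98 to 46.2 in the double transformant. In both mutants 0 of 4 passed, and 2 of 4 were lower at an unadjusted p under 0.05, against 4.21% and 4.94% of all probe sets. Of these SHT, an enzyme of the tapetum, differed by -1.22 ± 0.52 and -1.48 ± 0.52 and ANX2, a receptor kinase of pollen tubes, by -1.01 ± 0.39 and -0.87 ± 0.39 (limma adjusted p = 0.414 and 0.278, 0.353 and 0.414). The SHT signals were 0.564, 1.11 and 9.86 in null mutant arrays and 0.958, 4.06 and 0.663 in substitution arrays, most of them under the offset. In the double transformant arrays SHT had 13.6, 4.36 and 24.1. The ANX2 signal was under the offset in all 6 mutant arrays and in double transformant 2, at 0.636, and without double transformant 3 its differences were -0.64 and -0.50. Of the 6 root genes 3 were measured, with PYK10 between 788.1 and 1289.5 and log2 differences of 0.19 ± 0.19 and 0.30 ± 0.19, and EXPA7, an expansin of root hairs, at or below 8.99 with -0.30 ± 0.39 and -0.81 ± 0.39. The remaining root gene, the expansin EXPA18, stayed at or below 7.93 with -0.01 ± 0.39 and 0.36 ± 0.39. Here 0 of 3 passed, and 0 of 3 at an unadjusted p under 0.05, against 11.1% and 11.8% of all probe sets in either direction. The part of seeds, flowers or other organs in the PAP85 signal was not tested.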

How the data were processed

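RNA of 9 whole-plant samples was hybridised to ATH1 arrays. The deposited intensity values are linear MAS5 signals, with MAS5 and GCOS named per the submitters' processing notes and without a version. Groups and replicate numbers came from the titles. Of 22810 probe sets, 64 controls were left out. The platform annotation gave 13513 probe sets a single gene, 503 several and 8730 none; 13436 matched a current locus of TAIR10.1, used for names and gene order. A locus was read from its brightest probe set. Signals were transformed as log2(signal + 4.05), the offset being the 20th percentile, and fitted in limma 3.58.1 under R 4.3.3 with an intensity trend over all 9 arrays, with Benjamini-Hochberg adjustment over 22746 probe sets. The fit was tested on simulated data. The number of arrays limits the precision.

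PAP85 and the lists were chosen with earlier results of these data known. Genes named were PAP85, the measured members of 6 lists of seed genes, the 2 members with the smallest p of each other list, QQS, the 10 genes most like PAP85 and its 5 measured neighbours on each side. EXPA18 was named as well, as the remaining measured root gene. No protein or promoter sequence was used here, so relatives by sequence and promoter motifs were not analysed. Alternatives were other offsets, a dim filter, other normalizations, no trend, array weights, blocks, fits of fewer arrays, and an exact permutation test. The differences within the rpt arrays and the second LEA set were added after the data were seen.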

Additional observations from a re-analysis of the deposited data

How the results depend on the processing

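For PAP85 the log2 difference stayed above 0 in both mutants under every alternative run except within the 3 arrays whose titles end in rpt, where it was -0.12 in the null mutant, 0.61 for both mutants together and -1.48 between the null mutant and the substitution mutant (1 array a group, no test, chosen after the data were seen). The null mutant passed in 1 alternative, without the rpt arrays (3.04). The substitution mutant passed without the rpt arrays (2.88) and with array weights (2.49). Both mutants together passed with the smaller offset (2.44), without probe sets under a mean signal of 20 (2.18), with array weights (2.26) and without the rpt arrays (2.96). Leaving out single arrays gave 1.42 to 2.52 in the null mutant, 1.81 to 2.88 in the substitution mutant, 1.61 to 2.69 for both and -0.89 to 0.15 between the mutants, which was 0.16 without the rpt arrays. Over all alternatives with a test the limma adjusted p ran from 0.0340 to 0.509, from 0.0174 to 0.338 and from 0.00930 to 0.275. Same-numbered arrays of different groups deviated from their group means with correlations from -0.0409 to 0.154, so the numbers were not taken as pairs. The replicate block gave 1.98, 2.37 and 2.18 (limma adjusted p = 0.202, 0.102 and 0.0740) and changed no call of PAP85. LTI30 had an adjusted p from 0.0115 to 0.320 in the null mutant and passed under 8 of 21 alternatives. Of the 10 genes most like PAP85, 2 were kept with Spearman's rho and 0 with deviations from group means.

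The count of probe sets called was 173 in the null mutant, 170 in the substitution mutant, 271 for both and 9 between the mutants. Without a variance trend it was 113, 88, 171 and 0. Without double transformant 3 and null mutant 3 it was 57, 73, 84 and 0, and without the rpt arrays 61, 369, 272 and 18. With only the 6 arrays of the groups compared it was 58 in the null mutant, 197 in the substitution mutant and 4 between them. Array weights gave 373 and the replicate block 321 in the substitution mutant. Without single arrays it ran from 73 to 339, from 46 to 212, from 107 to 348 and from 0 to 48. Centring on medians and the rpt block each left 5 between the mutants. The causes were not tested. Signals under the offset carry little information on level, which limits EEL and most storage genes.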
